A study of Mus musculus with 59 samples.

Results

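The probes described here were raised by alpha-melanocyte stimulating hormone (α-MSH) and lowered by agouti signaling protein (ASP) late in treatment. They were chosen on measured values. The array's own median was first subtracted from its values. The late value of a probe was the mean of its log2 ratios at 3 d and 4 d, with both dye orientations counted equally. A probe was taken where it had a value on all 59 arrays, its late value with α-MSH was at least 0.4 and its late value with ASP was at most -0.4. This rule took 181 probes of the 18694 with a value on all arrays (the complete probes, of which the 181 are 0.968%) and of 38591 probes in all.

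The RNA came from melan-a cells, a line of melanocytes of the C57BL6 strain, treated with α-MSH at 100 nM or with ASP at 10 nM for 3 h or 1, 2, 3 or 4 d. Each treated RNA was hybridised against RNA of untreated cells on 2-colour arrays, with 3 biological replicates for each of the 10 drug and time groups and an array in each dye orientation. All groups share the one cell line, and the 2 drugs were given at different doses. The sources do not say whether untreated RNA was shared between times or drugs. Which arrays form a replicate is not labelled, so p-values and SDs rest on assumed pairs. ASP at 2 d had 1 array fewer, and its replicate 3 is a single array with treated RNA in Cy3. No label names a run, but the database numbers in the titles fall into blocks. Blocks of near numbers are called runs here, an inference from gaps between the numbers: A, B and C for the α-MSH arrays and D for all ASP arrays. A difference between the drugs cannot be told apart from a difference between these runs.

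Melanocytes carry the melanocortin 1 receptor, a receptor of the cell surface that signals through cyclic AMP. α-MSH activates it, which raises the transcription factor Mitf and the enzymes that make eumelanin, the brown to black pigment. ASP is the natural antagonist of the receptor and is known for turning pigment cells to yellow pheomelanin.  The files do not pair the probes with gene names, so the probes are given by their identifiers, and neither melanocyte markers nor pigment genes could be looked up among them.

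A positive log2 ratio is read as higher in treated cells, after the design text. The numerator itself is not stated, and with the ratio turned these would be probes lowered by α-MSH and raised by ASP. The log base is likewise taken as 2. The late values, which chose the probes, are a description with no test. With α-MSH they ran from 0.40 to 2.24 with a median of 0.54, a 1.46-fold difference. With ASP they ran from -3.04 to -0.40 with a median of -0.61, a 1.52-fold difference. Of the complete probes, 723 met the α-MSH limit and 25% of those are among the 181. The other 542 had a median late value of 0.46 with α-MSH and -0.01 with ASP. They include runs of probes with neighbouring identifiers and nearly equal late values, close to the α-MSH limit and hardly changed with ASP. Probes in such runs were not counted, so the 25% is a share of a mixed set. The ASP limit was met by 1166, of which 15.5% are among the 181. The reverse pattern, lowered by α-MSH and raised by ASP, held 153 probes, while 30 were raised by both and 8 lowered by both. Just inside the α-MSH limit lay 1785027_1 at 0.4006, and just outside it 1764720_1 at 0.3999. Just inside the ASP limit lay 1785612_1 at -0.4016, and just outside it 1767635_1 at -0.3996.

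**Figure D1:**
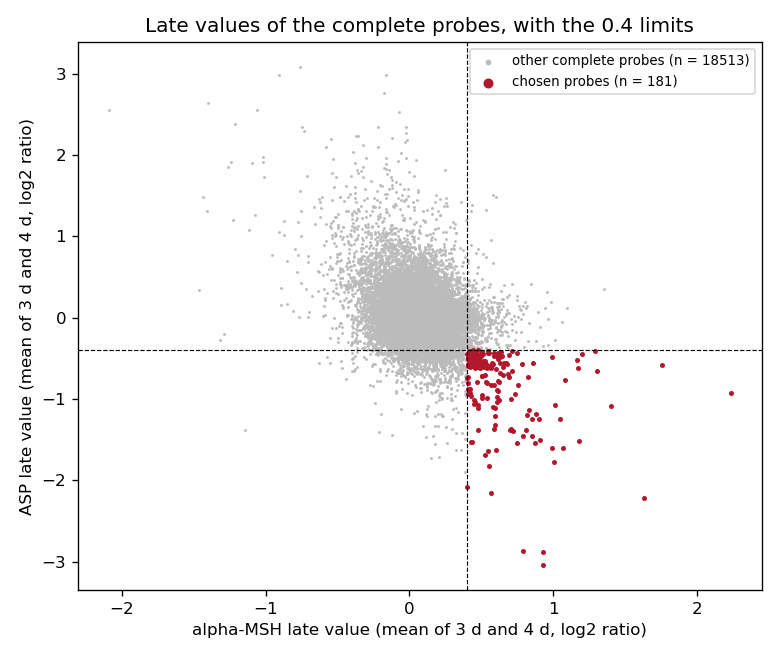
Late value with α-MSH (horizontal axis) against late value with ASP (vertical axis), both in log2 ratio, for the complete probes; dashed lines mark the limits of 0.4 and -0.4. The 181 chosen probes (red) fill the lower right corner by construction, most of them close to the limits, with a few reaching 2.24 with α-MSH or -3.04 with ASP.

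The late values at 3 d and 4 d can also be set side by side. With ASP 143 of the 181 probes were at or below -0.4 at both times, with α-MSH 79 were at or above 0.4 at both, and 65 did both. With α-MSH, 26 probes were higher at 3 d than at 4 d by more than 0.5 and 16 were higher at 4 d by as much. Late values of at least 1 in size were reached by 15 probes with α-MSH, by 46 with ASP and by 7 with both.

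Among the late replicates, which the rule used, 172 of the 181 probes lay below 0 in all 6 with ASP and 119 lay above 0 in all 6 with α-MSH. These counts describe the choice and have no test. The median of the 181 probes at α-MSH 3 d was 0.28, 0.38 and 1.11 in replicates 1, 2 and 3. Replicate 3 had the highest of the 3 medians, and 24 of the 181 probes exceeded a log2 ratio of 2 there, where 0.658% of the complete probes did. The complete probes also sat high in that replicate, with a median of 0.21. At ASP 3 d the 3 medians were -0.73, -0.74 and -0.73. Without α-MSH 3 d replicate 3, 79 of the 181 probes no longer met the rule. Without α-MSH 4 d replicate 2, 49 no longer met it, and leaving out any other late replicate lost between 4 and 14. The probes that met the rule whichever late replicate was left out numbered 76.

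The rule was also applied to 2 of the 3 replicates, and the values were then read in the replicate that it had not used. With replicate 1 left out, 317 probes were taken, and their median in that replicate was 0.16 with α-MSH and -0.51 with ASP. With replicate 2 left out, 187 were taken, with medians of 0.51 and -0.64. With replicate 3 left out, 130 were taken, with medians of 0.49 and -0.78. In the replicate left out, 73.5%, 95.2% and 94.6% of the taken probes were above 0 with α-MSH, where 48.6%, 63.8% and 64.9% of the complete probes were. With ASP, 98.4%, 97.3% and 98.5% were below 0, where 43.9%, 51.9% and 49.5% of the complete probes were. For these sets the ASP medians in the replicates used were -0.60, -0.63 and -0.70, close to those in the replicate left out. The α-MSH median in the replicate left out was smallest for replicate 1, which is of run A, at 0.16 against 0.53 in the replicates used. The late α-MSH replicates 2 and 3 are both of run B. With either of them left out, the other one of the same run still took part in the choice. The sets shared 161, 139 and 105 probes with the chosen probes, so they are not the same set. Replicates are assumed pairs and may share untreated RNA. The replicate left out need not be independent, so these values describe the late times and do not test the pattern.

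**Figure D2:**
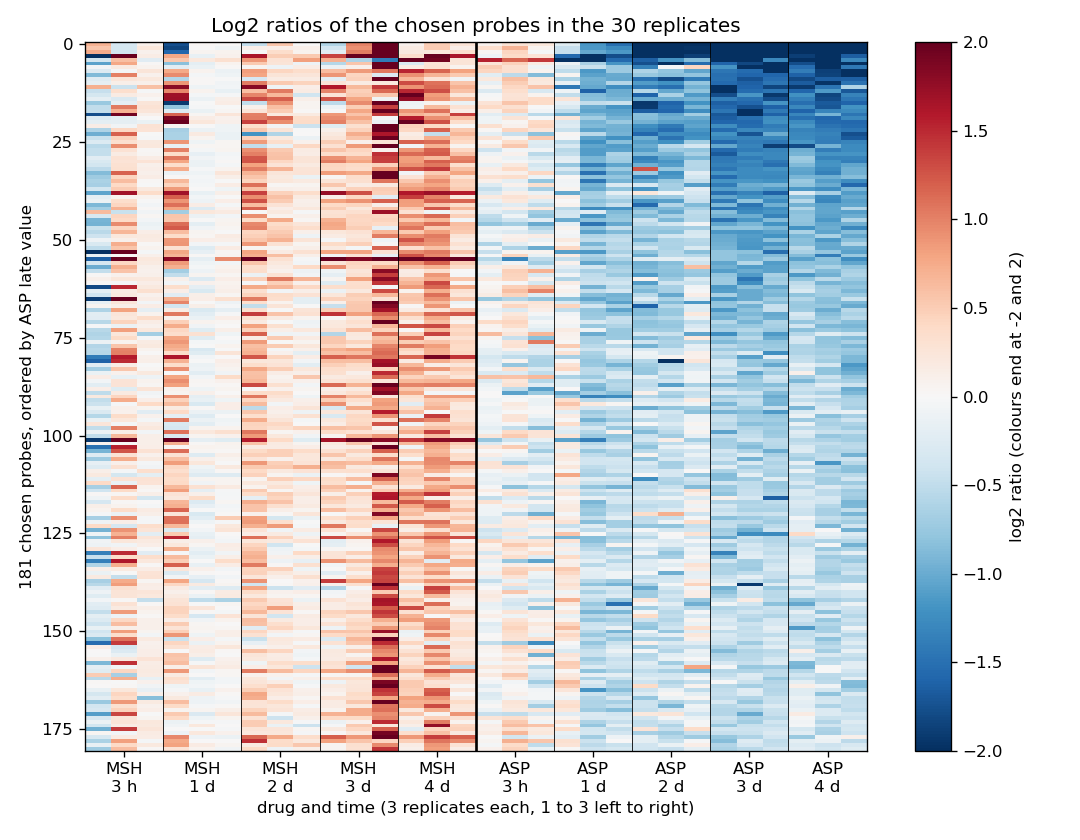
Log2 ratios (colour, ending at -2 and 2) of the 181 chosen probes in rows, ordered by their late ASP value, and the 30 replicates in columns, 3 for each drug and time. Blue fills most ASP columns from 1 d on, but not replicate 1 of 1 d, where 94 of the 181 probes lay above 0. Red is spread unevenly over the α-MSH replicates and is deepest in replicate 3 of 3 d.

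The log2 ratios at 3 h, 1 d and 2 d did not enter the rule, which only required that they be present, and limma was applied to them. These tests are not fully independent of the choice. Untreated RNA may be shared between early and late times, and the dye effect and the limma spread were fitted with the late arrays included. Whether this changed the numbers of probes called early was not tested. At 3 h with ASP the 181 probes lay close to the complete probes. Their median minus that of the complete probes was -0.04, 0.02 and -0.01 in the 3 replicates. No probe of the 181 was called lower at 3 h (limma adjusted p under 0.05), where 0.429% of all 35873 probes tested were, and 13, or 7.18%, had an unadjusted p under 0.05 in that direction, against 6.69% of all probes tested. In all 3 replicates 45 lay below 0, or 24.9%, against 16.4% of the complete probes.

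By 1 d with ASP the median of the 181 probes lay below that of the complete probes in every replicate. Their median minus that of the complete probes was -0.50, -0.61 and -0.54, a mean of -0.55 ± 0.06 (SD, n = 3). In limma, 8 of the 181 were called lower at 1 d, or 4.42%, against 0.136% of all 35257 probes tested. All 3 replicates lay below 0 for 85 probes, against 4.63% of the complete probes. Replicate 1 stood apart here: the complete probes themselves had a median of 0.51 after centring, so the 181 probes appeared near 0 (0.01) unless read against them. The share of the complete probes called lower at 1 d was 0.102%, and of the 985 other ASP-lowered probes 1.12%.

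At 2 d with ASP the shift had about the same size. The median of the 181 minus that of the complete probes was -0.48, -0.59 and -0.50, a mean of -0.52 ± 0.06 (SD, n = 3). In limma, 21 of the 181 were called lower, or 11.6%, against 0.569% of all 30555 probes tested. Among the 985 other ASP-lowered probes 83 were called lower at 2 d, or 8.43%, a share not far below that of the 181. In all 3 replicates 134 of the 181 lay below 0, against 15.8% of the complete probes. Over the mean of 1 d and 2 d, 63 were called lower, or 34.8%, against 1.21% of all 30161 probes tested. Of the 985 other ASP-lowered probes, whose late ASP median was -0.51, 15.7% were called over that mean. The shares of the 181 and of these other probes were not tested against each other at 2 d or over the mean. The 63 had a median log2 ratio of -0.76, a 1.69-fold decrease. Over the 181 probes, 68 were below 0 in all 6 ASP replicates of 1 d and 2 d, against 1.95% of the complete probes. Leaving out ASP 2 d replicate 2 lowered the counts to 2 at 2 d and 32 over the mean, and leaving out ASP 2 d replicate 1 lowered them to 4 and 36. Without ASP 1 d replicate 2 the count over the mean was 37, and without ASP 1 d replicate 3 it was 40. At 1 d alone the count was 2, 2 and 3 without replicates 1, 2 and 3, and also 2 with the spread taken from the 3 h, 1 d and 2 d groups alone.

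**Figure D3:**
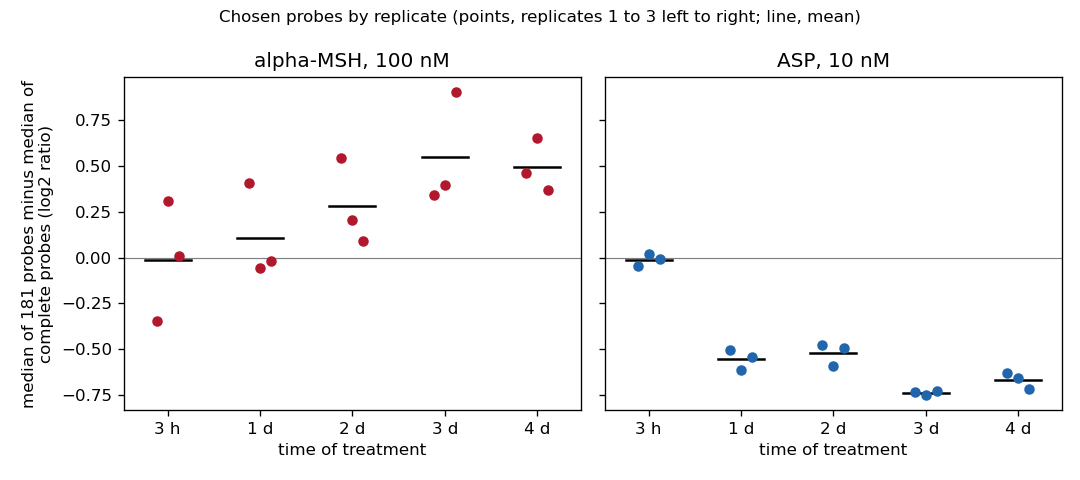
Median log2 ratio of the 181 chosen probes minus that of the complete probes, for each replicate (points) and its mean over 3 replicates (line), by time of treatment with α-MSH (left) and ASP (right). The 3 ASP replicates of each time lie close together and below 0 from 1 d on, while α-MSH replicates at 3 h lie on both sides of 0 and those at 1 d and 2 d reach 0.41 and 0.55 in replicate 1.

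With α-MSH none of the 181 probes was called higher at 3 h, 1 d, 2 d or over the mean of 1 d and 2 d, and the background was 0% of all probes tested in each of these comparisons. At an unadjusted limma p under 0.05, 0, 6, 38 and 58 of the 181 were higher, against 0.468%, 0.957%, 1.16% and 1.29% of all probes tested. At 2 d all 3 replicates lay above 0 for 101 probes, or 55.8%, against 15.1% of the complete probes. At 1 d the number was 36, or 19.9%, against 21.7%, and at 3 h it was 8, or 4.42%, against 10.8%. On this count 2 d alone lay above the background. Means at both 1 d and 2 d were above 0 with α-MSH and below 0 with ASP for 130 of the 181 probes, against 7.92% of the complete probes.

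The α-MSH replicates of the early times differed among themselves. At 3 h replicate 1, of run A, had 149 of the 181 probes below 0 and a median of -0.35 relative to the complete probes. Replicate 2, of run B, had 148 above 0 and a relative median of 0.31, and replicate 3, of run C, had a relative median of 0.01. The replicates thus ran in opposite directions at 3 h. At 1 d the relative medians were 0.41 in run A, -0.06 in run B and -0.02 in run C. At 2 d they were 0.55 in run A and 0.20 and 0.09 in the 2 replicates of run B. The increase at 1 d was thus present in 1 of the 3 replicates, and each 2 d replicate was above 0. The part of the run in these values was not tested, since each early time has at most 2 replicates in a run.

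Side by side over 1 d and 2 d, 53 of the 181 probes were higher with α-MSH than with ASP in limma, or 29.3%, against 0.428% of all 29873 probes tested. The 53 had a median difference of 1.06 in log2 ratio, or 2.09-fold. Of these, 44 were also called lower with ASP alone, and none was called higher with α-MSH alone. For 37 of the 181 all 6 α-MSH replicates lay above all 6 ASP replicates, against 0.599% of the complete probes. Among the other ASP-lowered probes 5.28% were called in this comparison. The count fell to 28 without ASP 2 d replicate 2, to 29 without α-MSH 2 d replicate 1, to 30 without α-MSH 1 d replicate 1, and to 35 without ASP 2 d replicate 1 or ASP 1 d replicate 2. Drug, dose and run coincide in this comparison and cannot be told apart.

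The 25 probes with the largest smaller side, that is the smaller of the 2 late sizes, had late values between 0.75 and 2.24 with α-MSH and between -3.04 and -0.77 with ASP. Of the 25, 18 were called lower with ASP over 1 d and 2 d. The share was 34.8% of the 181, 15.7% of the other ASP-lowered probes and 1.21% of all probes tested. In the comparison of the drugs 15 of the 25 were called, where these shares were 29.3%, 5.28% and 0.428%. The 25 were picked for their late sizes. Probe 1777812_1 led them, with late values of 1.64 and -2.22. With ASP it gave -1.57, -2.01 and -1.78 at 1 d and -2.13, -2.60 and -1.89 at 2 d, so every replicate was low. Its estimate over 1 d and 2 d was -2.03 (SE 0.45, limma adjusted p = 0.0081). With α-MSH it gave -2.91, 3.61 and 0.16 at 3 h, where replicates opposed each other. At 3 d it gave 1.36, 2.39 and 2.03, all high. Its difference between the drugs over 1 d and 2 d was 2.58 (SE 0.62, limma adjusted p = 0.032).

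Probe 1769398_1 lay above 0 in every late α-MSH replicate and below 0 in every ASP replicate of 1 d and 2 d. It gave 1.02, 0.79 and 1.37 with α-MSH at 3 d and 0.84, 1.19 and 1.06 at 4 d. With ASP it gave -0.17, -0.91 and -0.71 at 1 d and -1.27, -1.17 and -0.57 at 2 d. At both of these early times its ASP replicates lay below its α-MSH replicates, which were 0.79, -0.11 and 0.02 at 1 d and 1.26, 0.42 and 0.26 at 2 d. Its ASP estimate over 1 d and 2 d was -0.84 (SE 0.14, limma adjusted p = 0.00082), and the difference between the drugs was 1.28 (SE 0.20, limma adjusted p = 0.00075). Probes 1782861_1 and 1794622_1 resembled it, with group means that differed from those of 1769398_1 by at most 0.22 and 0.21. Neither they nor 1769398_1 passed both late limits in each dye orientation taken alone. Probe 1776305_1 gave -0.52, -1.15 and -0.73 with ASP at 1 d and -1.45, -1.54 and -2.07 at 3 d. With α-MSH its mean was -0.02 ± 0.26 at 3 h, 0.54 ± 0.26 at 2 d and 1.17 ± 0.36 at 4 d (SD, n = 3), and neither early mean was called. It was 1 of the 8 probes called with ASP at 1 d, at -0.80 (SE 0.19, limma adjusted p = 0.044).

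The lowest ASP values belonged to 3 probes that moved almost together. Probes 1795447_1, 1796764_1 and 1775850_1 had group means within 0.36 of each other in every group. At ASP 2 d, 1795447_1 gave -2.60, -2.87 and -1.99, 1796764_1 gave -2.89, -2.77 and -1.96, and 1775850_1 gave -2.79, -2.67 and -2.09. All 3 were called lower there, by estimates of -2.59 (limma adjusted p = 0.0138), -2.65 (0.0075) and -2.60 (0.0011). Their late ASP values were -3.04, -2.88 and -2.87. Their α-MSH values were not even: at 3 d the replicates of 1795447_1 were -0.60, 1.00 and 4.30, and those of 1796764_1 were -0.38, 0.91 and 4.22. At α-MSH 1 d replicate 1 the 3 probes lay at -1.75, -1.84 and -1.59, and the other replicates lay near 0. Without replicate 3 of 3 d their late α-MSH values were 0.24, 0.27 and 0.33, under the limit of 0.4. Probe 1768721_1 was also highest in that replicate, with 0.00, 0.78 and 4.21 at 3 d, but its late value without it, 0.55, stayed above the limit. Probe 1768721_1 was called with ASP over 1 d and 2 d at -1.21 (SE 0.31, limma adjusted p = 0.024).

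The highest α-MSH values belonged to 1788237_1 and 1768189_1, and both lay nearer to 0 with ASP at 2 d than at 1 d or late. Probe 1788237_1 gave 2.48, 1.85 and 2.10 with α-MSH at 3 d and 2.41, 1.93 and 2.64 at 4 d. With ASP it was below 0 in every replicate. It gave -0.57, -1.31 and -0.52 at 3 h, -0.48, -0.72 and -0.61 at 1 d and -0.25, -0.18 and -0.26 at 2 d. Its late ASP value was -0.93, further from 0 than the median of the 181 probes, with -1.09, -0.83 and -1.24 at 4 d. Probe 1768189_1 gave 1.67, 2.01 and 1.82 with α-MSH at 3 d and 1.41, 1.82 and 1.83 at 4 d, and with ASP -1.07, -1.37 and -0.72 at 1 d and -0.31 ± 0.41 (SD, n = 3) at 2 d. Its late ASP value was -0.58. Neither was called with ASP over 1 d and 2 d (limma adjusted p = 0.55 and 0.32). Both also showed the opposed α-MSH replicates at 3 h, with -1.63, 2.33 and 0.21 in 1788237_1 and -1.91, 2.13 and 0.11 in 1768189_1.

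**Figure D4:**
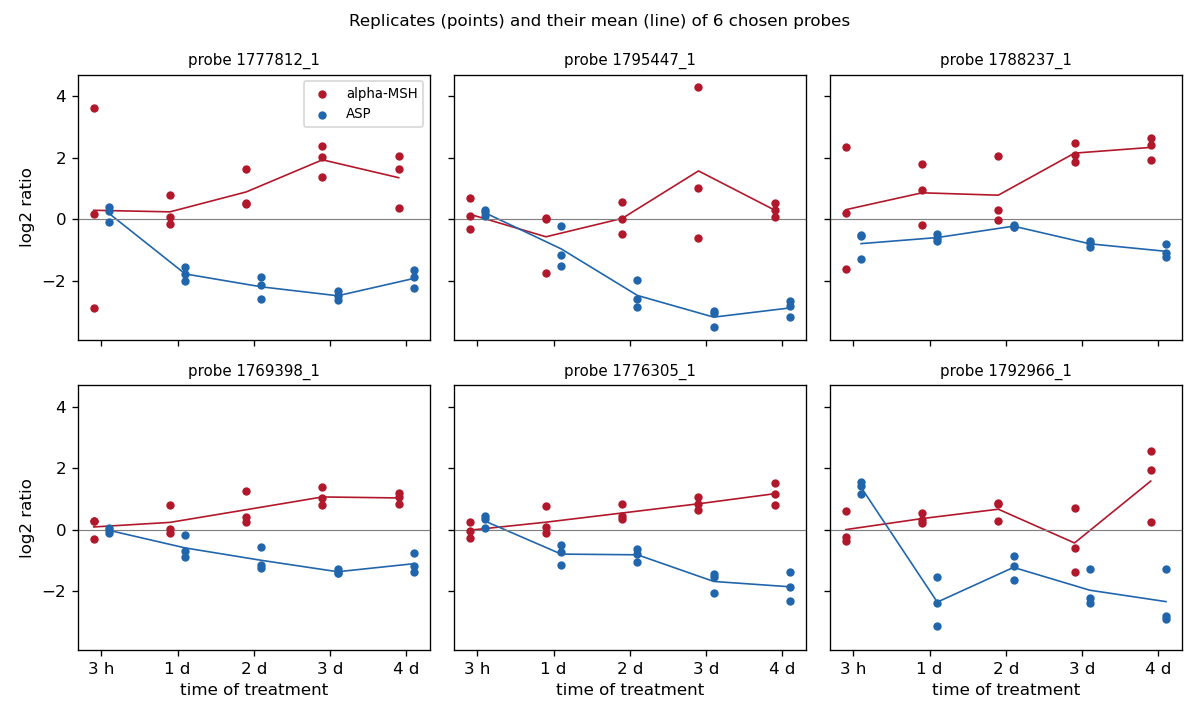
Log2 ratio (vertical axis) against time of treatment for 6 of the chosen probes, with α-MSH in red and ASP in blue; points are replicates (n = 3) and lines join their means. Probe 1795447_1 reaches its α-MSH limit through 1 replicate at 3 d (4.30), probe 1788237_1 is high in all late α-MSH replicates, and 1792966_1 is above 0 with ASP at 3 h and below it from 1 d on.

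Beside the 3 lowest probes, 1780767_1, 1776055_1, 1778490_1 and 1775775_1 gave the largest decreases called at ASP 2 d. Their estimates were -1.82, -1.65, -1.58 and -1.56, or 3.54-, 3.14-, 3.00- and 2.95-fold (limma adjusted p = 0.0117, 0.0294, 0.0034 and 0.0036). Probe 1780767_1 gave -1.76, -2.02 and -1.54 at ASP 2 d. It lies just inside the α-MSH limit, at 0.4011, and its α-MSH 3 d replicates were -0.57, 0.56 and 2.20. The smallest of the 21 decreases called at 2 d was -0.81, and their median was -1.14.

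Probe 1792966_1 lay on both sides of 0 with ASP. It gave 1.56, 1.16 and 1.41 at 3 h, where its estimate did not pass the test (1.38, SE 0.38, limma adjusted p = 0.096). At 1 d it gave -2.38, -3.14 and -1.56, all low. It was called lower there at -2.36 (SE 0.38, limma adjusted p = 0.0036), the largest of the 8 decreases called then. With α-MSH it was above 0 in each replicate of 1 d and 2 d, but gave 0.70, -0.62 and -1.39 at 3 d and 2.55, 1.93 and 0.26 at 4 d. The difference between the drugs over 1 d and 2 d was 2.34 (SE 0.39, limma adjusted p = 0.0016). The other 7 called at 1 d were 1787673_1, 1793485_1, 1778773_1, 1765277_1, 1772810_1, 1798580_1 and 1776305_1, with estimates from -1.10 to -0.80.

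Other probes also had like profiles. Among the 181, 17 pairs made of 21 probes had group means within 0.25 of each other in all 10 groups. Such pairs were not counted among the other complete probes, so it cannot be said whether 17 is many. Probes 1781951_1, 1785783_1 and 1789374_1 formed such a set. At α-MSH 1 d they gave 1.71, 1.98 and 1.88 in replicate 1, and between -0.12 and 0.22 in the others, so only the run A replicate was high at that time. At ASP 2 d the means were -0.97 ± 0.04, -1.04 ± 0.09 and -0.93 ± 0.07 (SD, n = 3), all close together. The differences between the drugs were 1.45, 1.68 and 1.46 (limma adjusted p = 0.011, 0.0022 and 0.0041). Whether probes of a set report one transcript could not be read from the files.

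The dye of the treated RNA also moved these probes. The dye effect, 0.5 times the difference between orientations, had a median of 0.40 over the 181 probes with α-MSH, where the complete probes had 0.34, and of 0.18 and 0.16 with ASP. Before the dye effect was removed, the median at α-MSH 3 d was 1.03 on the Cy5 arrays, which held the treated RNA in that dye, and 0.12 on the Cy3 arrays. At ASP 3 d it was -0.79 and -0.74. In each orientation taken alone, 22 of the 181 probes passed both limits, and 19 of those also met the rule whichever late replicate was left out. Probe 1794999_1 was among the most even, with late values of 1.08 and 1.05 with α-MSH and -1.72 and -1.48 with ASP in Cy5 and Cy3.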

How the data were processed

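The deposited table holds log2 ratios of the 2 channels of each array, with base 2 assumed; for the scanner, the spot filter and the authors' normalization, the submitters' settings were not given in the sources used here. Labelling was indirect, with Cy3 and Cy5, per the labels. The array median was subtracted, each probe's dye effect was estimated per drug and removed, and both arrays of a dye-swap pair were averaged into 1 replicate. Pairs followed the database numbers for α-MSH and the repeat numbers for ASP. The 30 replicates of 59 arrays were fitted by lmFit and eBayes of limma 3.58.1 (R 4.3.3) over 10 groups. A probe needed values in 20 replicates to be fitted and in all 3 replicates of each group tested, and p-values were adjusted by Benjamini-Hochberg over all probes tested, with a threshold of 0.05.

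The pipeline was tested on simulated data. With equal weights it called too many unchanged probes at ASP 2 d, where 1 replicate is a single array. That replicate was therefore given a weight of 0.5, which brought false calls in the simulation back near the threshold. The simulated arrays were drawn independently of each other, so the simulation cannot show whether the calls in the data are calibrated. This weight was set after counts with equal weights had been seen, and it lowered them: equal weights called 29 probes at ASP 2 d, 70 over 1 d and 2 d and 57 between the drugs. ASP estimates that include 2 d are weighted means and can differ slightly from the plain mean of the replicates.

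The probes and the lists were chosen with earlier results of these data known. Named probes are the 25 with the largest smaller side, up to 10 called in each comparison, and those nearest the limits; 1768189_1 was named after its values were seen, for its α-MSH late value. Marker and pathway lists were not used, because the probes carry no gene names. Precision is limited by the number of arrays, with a typical standard error of 0.22 for the mean of a group over the chosen probes. Alternatives were other centring, dye correction, scaling, pairing, filters, spread and limits, and leaving out each replicate.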

Additional observations from a re-analysis of the deposited data

Results flagged for a closer look

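An array far from the others of its group was looked for in 20 checks, with 2 measures in each of the 10 groups. Chance flags about 1 in 20 of such checks, and 2 arrays were flagged. Both were flagged on the median of the 181 probes. Neither was flagged on that median minus the median of the complete probes. At α-MSH 2 d the array of replicate 1 with treated RNA in Cy3 had a median of 0.82 over the 181 probes, where the others lay between -0.02 and 0.29. At ASP 1 d the array of replicate 1 with treated RNA in Cy5 had a median of 0.54, where the others lay between -0.77 and -0.45. It is the array with the deposited median of -1.435, the lowest of all. Without replicate 1 of ASP 1 d, which holds it, the probes called lower were 2 at 1 d and 76 over 1 d and 2 d, and 70 differed between the drugs, against 8, 63 and 53 with it. With no centring 34 were called at 1 d, and with centring on the complete probes 31.

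The values differed between the drugs, which cannot be told apart from their runs and doses: 53 of the 181 probes were higher with α-MSH than with ASP over 1 d and 2 d in limma.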

How the results depend on the processing

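Of 197 alternative values, 143 were within 1.5 times the reported count or, for medians, within 1 SD of it. Another 34 were higher counts, 15 lower counts and 5 moved numbers of probes. Among the 143 are many counts that were 0 and stayed at 0, for the α-MSH comparisons and ASP 3 h. The tally therefore says little about the counts above 0, which are listed below. Of 24 medians of the 181 probes, 8 changed sign, all at 3 h: with ASP from 0.01 to between -0.05 and -0.01, and with α-MSH from 0.03 to between -0.02 and -0.0035. These 8 were changes of medians that lay within 1 SD of 0. In the reported fit no probe of the 181 was called in the direction opposite to the one tested. Opposite calls were not counted under the alternatives. Counts follow in the order ASP 1 d, ASP 2 d, ASP over 1 d and 2 d, and the comparison of the drugs, reported as 8, 21, 63 and 53. Single arrays with the pair as a random block gave 30, 53, 103 and 99, with 2 at ASP 3 h and 1 for α-MSH over 1 d and 2 d. Single arrays taken as independent gave 27, 50, 96 and 92, with 1 and 1. Pairs by title number gave 20, 34, 81 and 75. No centring gave 34, 37, 106 and 84, loess on the dye profile 32, 39, 105 and 89, and scaling to one spread 26, 77, 137 and 119. Complete probes alone gave 26, 46, 90 and 83, with 1 at ASP 3 h. Centring on the complete probes, chosen after seeing the data, gave 31, 37, 104 and 85, and each of the 63 remained among the 104. The spread of the early groups alone gave 2, 18, 52 and 37. A robust prior gave 8, 21, 62 and 53, and leaving α-MSH 3 h out of the fit, added after seeing the data, gave 70 over 1 d and 2 d and 68 between the drugs. The cause of these differences was not tested.

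Leaving out 1 replicate gave 2 to 3 at ASP 1 d, 2 to 18 at ASP 2 d, 32 to 76 over 1 d and 2 d, and 28 to 70 between the drugs. The number of probes taken was 412 with limits of 0.3 and 89 with limits of 0.5. It was 65 with the limits met at 3 d and 4 d separately and 22 with each dye orientation alone. Without 1 late replicate it was 112 to 271. No centring took 124 probes, loess on the dye profile 150, scaling to one spread 122 and centring on the complete probes 142. Of these, 123, 143, 114 and 135, in that order, were among the chosen probes, so part of the choice depends on the processing. The replicate block gave 8, 21, 60 and 48. Deviations of same-numbered replicates had no steady correlation (between -0.294 and 0.293, with medians for each drug and replicate number from -0.014 to 0.091). The numbers were therefore not taken to pair samples, though a shared part was not tested. Equal weights, added after seeing the data, gave 29, 70 and 57 at ASP 2 d, over 1 d and 2 d and between the drugs.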
